A study of Mus musculus with 3 samples.

Results

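The genes described here are the killer cell lectin-like receptor (Klr) genes of the mouse, read in RNA-seq counts of 3 control thymi. They were taken as every gene whose symbol in the GENCODE M21 annotation begins with Klr and a letter from a to k, of any biotype, which gave 30 of the 52636 genes in the files. The 3 libraries, called thymus 1, 2 and 3 by the replicate numbers of the labels, came from C57BL/6 mice with genotype Cic flox/flox + TAM. That is, both alleles of Cic, which encodes the repressor capicua, were flanked by loxP sites, and tamoxifen had been given. The label names no Cre driver and no age, and whether these thymi had lost Cic cannot be read from it. In the study they were the control littermates for Cic-null lymphomas, which are not analysed here, so there was 1 group and no contrast between groups.

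Klr genes encode type II membrane proteins with a C-type lectin-like domain, best known as receptors of natural killer (NK) cells. Inhibitory members carry a tyrosine-based motif, the ITIM, in the part that lies inside the cell and recruit phosphatases such as SHP-1. Activating members lack it and signal through adaptor proteins with which they pair. The Klra (Ly49) receptors bind classical MHC class I, the heterodimers of Klrd1 (CD94) with Klrc (NKG2) proteins bind the non-classical molecule Qa-1, Klrk1 (NKG2D) binds stress-induced ligands, and Klrb1 (NKR-P1) receptors bind Clec2 proteins. In the thymus such receptors are known from NK cells, NKT cells and other innate-like T cells, which are few beside the developing thymocytes.

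The libraries held 30414788, 28587087 and 25408442 reads assigned to genes, and the Klr genes together took 3090, 2129 and 2089 of them. All 7 thymocyte markers were at 1 CPM or more, with the recombinase gene Rag1 at 4075 ± 169 CPM and Cd8a at 1830 ± 38.6 CPM (SD, n = 3). CPM, the unit of level used throughout, is a gene's read count relative to the reads of its library in the genes that passed edgeR's filter on low counts, after scaling between libraries by edgeR's TMM factors. A count of 3, taken as the limit that a count of 0 allows, was 0.0986 to 0.122 CPM. The labels name no animal per library, so the spread between thymi may be technical in part. In bulk tissue, fewer cells of a type and less RNA per cell cannot be told apart.

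The ITIM difference between inhibitory and activating Klra receptors can be read in the first bases of their coding sequences. The first 60 coding bases of 3 abundant members and of 2 scarce ones are shown 5′ to 3′ with codon 8 in capitals, all from the minus strand of GRCm38 in the GENCODE M21 transcripts.
Klra9, chr6:130191242-130191301: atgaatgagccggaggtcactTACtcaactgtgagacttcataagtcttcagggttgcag
Klra7, chr6:130231558-130231617: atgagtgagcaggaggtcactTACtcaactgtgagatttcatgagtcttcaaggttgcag
Klra3, chr6:130335740-130335799: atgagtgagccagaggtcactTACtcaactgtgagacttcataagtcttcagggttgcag
Klra4, chr6:130065243-130065302: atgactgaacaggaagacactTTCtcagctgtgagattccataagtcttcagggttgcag
Klra8, chr6:130128101-130128160: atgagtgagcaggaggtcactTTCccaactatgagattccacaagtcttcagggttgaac
Codon 8 encoded tyrosine, the tyrosine of the ITIM, in 9 of the 11 protein-coding Klra genes and phenylalanine in Klra4 and Klra8. With positions counted from 1 at the A of the start codon and Klra9 as the reference, the change was A23T in both. Klra4 (Ly49D) and Klra8 (Ly49H) are known activating receptors that pair with the adaptor DAP12. Klra9 differed from Klra3 at 2 of the 60 bases, from Klra4 at 9 and from Klra8 at 10. This grouping by codon was made after levels and sequences had been seen.

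The same place separated the NKG2 genes. Klrc1 (NKG2A), the inhibitory partner of CD94, had a tyrosine codon 8, whereas Klrc2 (NKG2C) and Klrc3 (NKG2E) had the codon GAA there and were identical to each other over these bases. All are from the minus strand, shown as above.
Klrc1, chr6:129678851-129678910: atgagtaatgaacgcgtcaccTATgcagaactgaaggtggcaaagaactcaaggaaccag
Klrc2, chr6:129660497-129660556: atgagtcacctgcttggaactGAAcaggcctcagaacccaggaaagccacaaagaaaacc
Klrc3, chr6:129643229-129643288: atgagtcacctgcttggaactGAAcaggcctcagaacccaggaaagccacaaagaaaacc

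Of the 30 genes, 15 were at 1 CPM or more in all 3 thymi, beside 26.9% of all genes in the files. Among protein-coding members they were 14 of 26, beside 58.4% of all protein-coding genes. Another 14 stayed below 1 CPM in all 3, with mean levels from 0 to 0.795 CPM, and Klrb1f lay on both sides of that line. The summed level of the family was 102, 72.6 and 84.8 CPM in thymus 1, 2 and 3 (86.3 ± 14.5, SD, n = 3). Klrk1, Klra9 and Klrd1 together held 47.2 ± 3.36% of it.

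To compare genes, levels were divided by the length of exon. Klra9 led the order at 11.2 ± 3.67 CPM per kilobase, followed by Klrd1, Klra13-ps, Klra7, Klra3, Klrk1 and Klrb1c. In this order 25 of 29 neighbouring pairs had ranges over the 3 thymi that overlapped. Compared within each library, the gene ranked higher was higher in all 3 for 13 of the 29 pairs, among them Klra9 over Klrd1 and Klra13-ps over Klra7. The pairs whose ranges did not overlap were Klrd1 above Klra13-ps, Klra7 above Klra3, Klrb1c above Klrc1, and Klrg2 above Klra11-ps. The last of these rested on 6, 6 and 5 reads against 0, 1 and 1. These separations depended on the measure. Unique sequence is the exon length less the share of 50-base stretches that also occur in other transcripts. Per kilobase of unique sequence, the ranges of each of these pairs overlapped, with means of 7.41 for Klrd1 and 5.62 for Klra13-ps. Only 10 of the 30 genes reached a mean of 1 CPM per kilobase. In the plot of levels by gene they run from Klra9 down to Klre1.

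**Figure D1:**
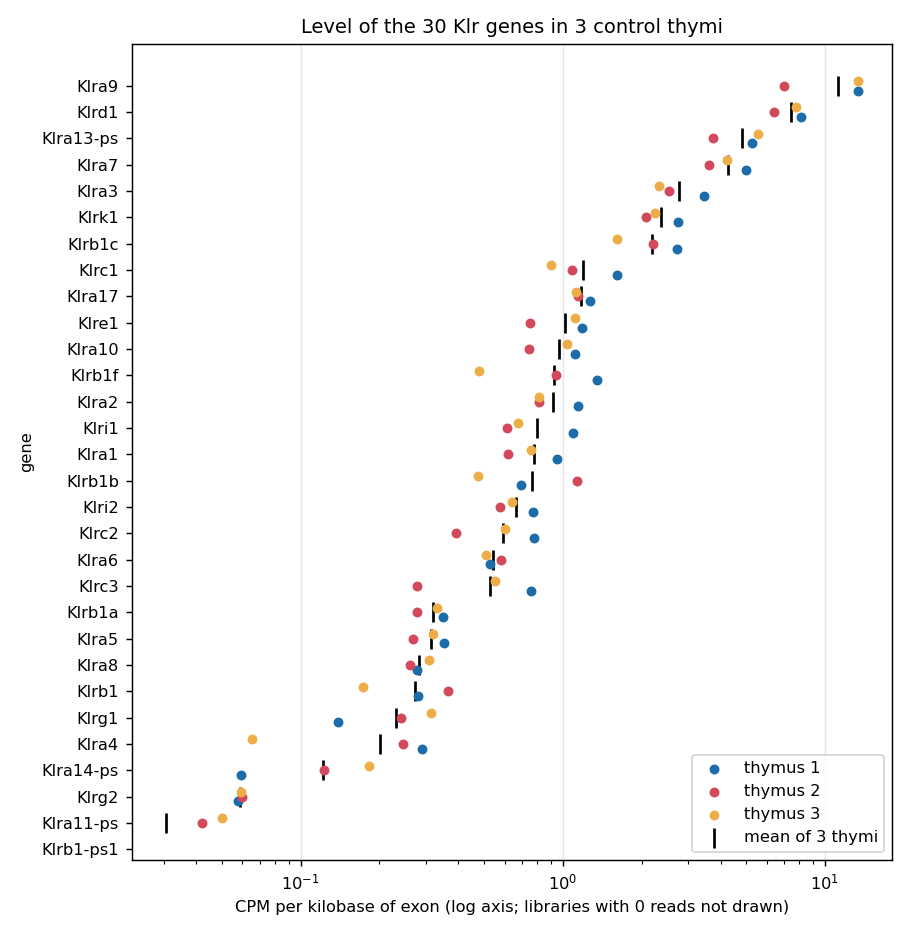
Level of each Klr gene (rows) in CPM per kilobase of exon on a log axis, with 1 coloured point per thymus and a black bar at the mean of 3. Klra9 is highest at 11.2 CPM per kilobase, its thymus 2 point sits apart to the left of the other 2, and Klrb1-ps1 has no point because it had no counts in any library.

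Klra genes made up the largest share of the summed level per kilobase, with 59.3%, 55.5% and 63.1% in thymus 1, 2 and 3. The Klrc genes with Klrd1 and Klrk1 held 25.1%, 26.2% and 24.8%. The Klrb1 genes held 9.69%, 12.6% and 6.34%, Klre1 with the Klri genes 5.15 ± 0.288%, and the Klrg genes 0.632 ± 0.241% (SD, n = 3). Per kilobase, the order of the 5 groups was the same in each thymus, and no ranges overlapped. In the order named the groups held 14, 5, 6, 3 and 2 genes, and a share also depends on the number of genes summed. By summed CPM, which is not divided by length, Klra stood at 41.3, 26.9 and 37.8 and the Klrc genes with Klrd1 and Klrk1 at 38.5, 27.8 and 31.7, so the higher of these changed in thymus 2. No test of these differences is given, because the smallest p that exact sign flips of 3 libraries allow is 0.25, two-sided.

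**Figure D2:**
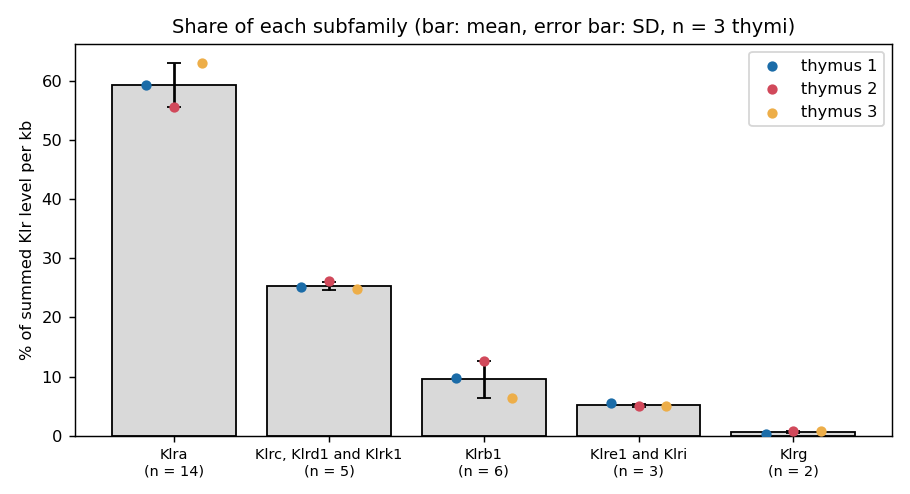
Percent of the summed Klr level per kilobase held by each subfamily, as the mean (bar), SD (error bar) and the 3 thymi (points). Klra genes hold 59.3% on average, and the points of no 2 subfamilies overlap.

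Klra9, the inhibitory receptor Ly49I, had 520, 262 and 420 reads in thymus 1, 2 and 3, or 17.1, 8.93 and 17.0 CPM. Thymus 1 and 3 were alike and thymus 2 was low, with a log2 difference of 0.93 between thymus 1 and thymus 2. The spread exceeded counting noise, the spread that random sampling of reads gives (adjusted p = 2.58e-20, edgeR's Poisson goodness of fit, adjusted over all genes tested). A stricter test sets a gene's spread against that of genes of like abundance, and Klra9 did not pass it (unadjusted p = 0.0096, adjusted p = 0.984, edgeR's quasi-likelihood variability test). It passed that test when thymus 3 was left out, as 1 of 137 genes called over the whole table, and with no filter on low counts, as 1 of 285. Without thymus 2 its spread no longer exceeded counting noise. Klra9 alone made up 40.4%, 32.2% and 43.6% of the summed Klra level per kilobase.

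Klra7, the inhibitory receptor Ly49G, had 192, 134 and 132 reads, which gave 6.31, 4.57 and 5.36 CPM. Klra3, the inhibitory receptor Ly49C, had 130, 92 and 71 reads, or 4.27, 3.14 and 2.88 CPM. Both were highest in thymus 1, and only Klra7 was lowest in thymus 2. Per kilobase Klra9 was 3.87, 2.76 and 5.73 times Klra3 in the 3 libraries and 2.68, 1.93 and 3.15 times Klra7, so it led in each. Both ratios were of the same order when length was replaced by unique sequence, at 4.77 ± 1.74 and 3.31 ± 0.783.

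Near-identical copies bear on these values, since the layout is that of STAR's gene counting, which leaves out reads that map to several places. Of the 50-base stretches of Klra9, 31.5% also occurred in another transcript, against 39.8% for Klra10, 20.7% for Klra3 and 12.3% for Klra7. Klra9 and Klra10 were 96.9% identical over the coding sequence, and Klra9 and Klra3 95.9%. Their levels were nevertheless far apart: Klra10 (Ly49J) had 28, 18 and 21 reads, and Klra9 exceeded it 11.4 ± 1.82-fold per kilobase. Per kilobase of unique sequence the ratio was 10.01 ± 1.60. Over all 55 pairs of the 11 protein-coding Klra genes, identity ran from 67.0% to 96.9%, and the pairs with Klra2 were the lowest in the plot of pairwise identity.

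**Figure D3:**
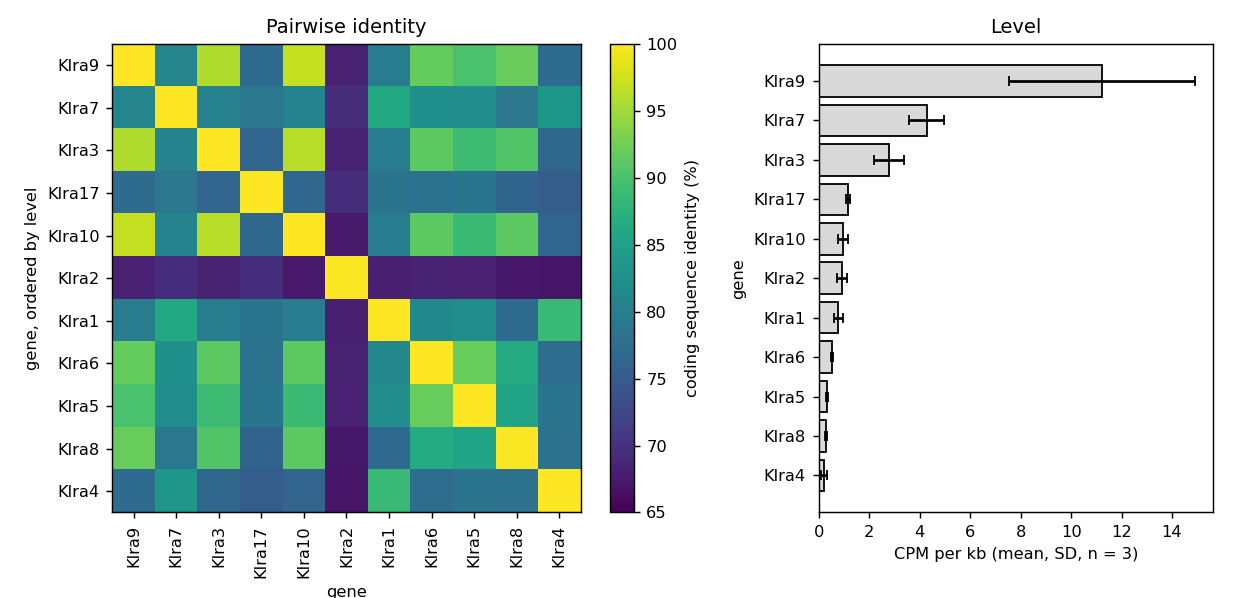
Left, percent identity of coding sequences between the 11 protein-coding Klra genes, ordered by level; right, their level in CPM per kilobase of exon (bar: mean, error bar: SD, n = 3 thymi). Klra9, Klra3 and Klra10 are 95.9% to 96.9% identical to each other, and their levels differ 11.4-fold between Klra9 and Klra10.

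The sequence just before the annotated start of Klra9 and Klra3 was also close, and is shown because the genes share 95.9% of their coding sequence and differ in level, as given above. The 250 bases upstream of each start in RefSeq (GRCm38.p6, minus strand, 5′ to 3′) are given. Bases that differ or face a gap in the other sequence are in capitals.
Klra9, chr6:130193113-130193362: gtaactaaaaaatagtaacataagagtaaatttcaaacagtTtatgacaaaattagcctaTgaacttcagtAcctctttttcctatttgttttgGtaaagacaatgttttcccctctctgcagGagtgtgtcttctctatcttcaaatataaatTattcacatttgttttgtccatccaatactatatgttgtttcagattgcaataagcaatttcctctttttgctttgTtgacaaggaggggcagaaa
Klra3, chr6:130337627-130337876: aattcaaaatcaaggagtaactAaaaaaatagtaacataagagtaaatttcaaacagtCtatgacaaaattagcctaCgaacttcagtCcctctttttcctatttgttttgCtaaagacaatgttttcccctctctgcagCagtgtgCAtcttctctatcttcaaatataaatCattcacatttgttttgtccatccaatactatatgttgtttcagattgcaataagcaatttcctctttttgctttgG
Over the 234 positions of the alignment, gaps included, 224 were identical, or 95.7%. There were 7 capitals in Klra9 and 10 in Klra3, since some bases of Klra3 had no counterpart in Klra9. The starts of the genes were annotated at places that lie apart by the few bases left over at either end. The use of these promoters was not measured.

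The remaining inhibitory Klra genes were scarcer. Klra2 (Ly49B), known from myeloid cells, had 66, 45 and 38 reads, Klra1 (Ly49A) 51, 32 and 33, and Klra17 (Ly49Q), known from plasmacytoid dendritic cells, 46, 40 and 33. All 3 were above 1 CPM in every thymus, and none varied beyond counting noise. Klra6 (Ly49F) had 18, 19 and 14 reads and Klra5 (Ly49E) 15, 11 and 11. They ranged from 0.375 to 0.648 CPM, below 1 CPM throughout.

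The activating pair was close to the limit of detection. Klra4 had 11, 9 and 2 reads, or 0.362, 0.307 and 0.0811 CPM, and Klra8, the receptor for a cytomegalovirus protein, had 10, 9 and 9. In thymus 3 Klra4 was under the 3-count limit, and neither gene passed the filter, set at a minimum of 10. Summed per kilobase, the 9 Klra genes with a tyrosine codon stood at 27.2, 17.3 and 24.4 CPM, and the 2 with a phenylalanine codon at 0.569, 0.507 and 0.375. The ratio was 47.7, 34.1 and 65.2, and 48.3 ± 13.5 per kilobase of unique sequence. It sets 9 genes against 2, and Klra9 alone gave 13.4, 6.98 and 13.3 of the first sum. A low level was not particular to the pair: Klra5, with a tyrosine codon, had a mean of 0.313 CPM per kilobase beside 0.283 for Klra8. Per kilobase of unique sequence Klra5 was the lower of these, at 0.315 against 0.423. Klra8 shared 33.1% of its 50-base stretches with other transcripts and Klra4 4.68%.

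Of the 4 pseudogenes only Klra13-ps was abundant. It had 167, 114 and 142 reads, or 5.49, 3.89 and 5.76 CPM, and was lowest in thymus 2 like Klra9. Its spread exceeded counting noise (adjusted p = 0.00753, edgeR's Poisson goodness of fit). Per kilobase it stood at 1.06, 1.03 and 1.31 times Klra7, the gene with which it shared 155 of its 50-base stretches (13.7% of its own). Klra14-ps had 2, 4 and 5 reads and Klra11-ps 0, 1 and 1, while Klrb1-ps1 had none in any library, which allows up to 3 counts in each.

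Klrd1 (CD94) had 316, 240 and 244 reads, or 10.4, 8.18 and 9.90 CPM. Its spread was small, with thymus 2 lowest and the highest library 1.27 times the lowest. No 50-base stretch of it occurred in another annotated transcript, and copies elsewhere in the genome were not searched. Klrc1 had 97, 63 and 44 reads, Klrc2 138, 67 and 86, and Klrc3 17, 6 and 10. Thymus 1 was highest for all 3, and the lowest library was thymus 3 for Klrc1 and thymus 2 for the others.

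Per kilobase, Klrd1 exceeded its Klrc partners summed by 2.58, 3.64 and 3.77 times. Counted per kilobase of unique sequence the ratio was 2.21 ± 0.441, since 38.6% of Klrc1, 36.3% of Klrc3 and 16.3% of Klrc2 stretches were shared. Per kilobase of exon the inhibitory Klrc1 stood at 1.04, 1.61 and 0.781 times Klrc2 and Klrc3 together, so which was higher by that measure changed between thymi. The annotated exons span 5.81 kilobases for Klrc2 and 1.98 for Klrc1. By CPM, which is not divided by length, Klrc2 alone was above Klrc1 in each thymus, at 4.54, 2.28 and 3.49 against 3.19, 2.15 and 1.79. Klrc1 and Klrc2 both varied beyond counting noise, with adjusted p = 0.00694 and 5.97e-05 in edgeR's Poisson goodness of fit.

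Klrk1 had the most reads of the family, 603, 439 and 398, or 19.8, 14.97 and 16.1 CPM. Because its annotated exons span 7.18 kilobases, it was sixth per kilobase, at 2.36 ± 0.352. Its adaptor gene Hcst (DAP10) was 8.28, 11.0 and 10.4 times as high per kilobase. Thymus 1 was highest for Klrk1, whereas Hcst lay between 16.5 and 16.9 CPM in all 3. Of the reads over Klrk1, 92.1%, 94.8% and 91.5% were on its own strand, beside 96.6% of all reads over genes. The exact 95% binomial intervals, 89.7% to 94.0%, 92.4% to 96.7% and 88.5% to 93.9%, lay below that share in thymus 1 and 3 and held it in thymus 2.

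Klrb1c, which encodes the NK1.1 antigen of C57BL/6 mice, had 246, 192 and 118 reads, or 8.09, 6.55 and 4.79 CPM. The highest library, thymus 1, was 1.69 times the lowest, thymus 3, and the spread exceeded counting noise (adjusted p = 4.78e-05, edgeR's Poisson goodness of fit). Klrb1f, an activating receptor, had 83, 56 and 24 reads and so showed the widest ratio among the genes tested, 2.80 between its highest and lowest library. Klrb1b, an inhibitory receptor for Clec2d, had 47, 74 and 26 reads. It was one of 2 tested genes, with Klra6, that were highest in thymus 2.

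In edgeR's quasi-likelihood variability test Klrb1f had an unadjusted p = 0.0286 and Klrb1b an unadjusted p = 0.0485, and both had an adjusted p = 0.984. Klrb1a had 17, 13 and 13 reads and Klrb1 12, 15 and 6, all below 1 CPM. A predicted gene on the same strand, Gm44511 at chr6:128780285-128826315, shares 413 exon bases with Klrb1c and 599 with Klrb1b. STAR counts reads that fall on such shared bases for no gene, and Gm44511 itself had 0 reads.

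Klre1 forms heterodimers with Klri1, which is inhibitory, or with Klri2, which is activating. Klre1 had 126, 77 and 96 reads, Klri2 92, 66 and 62, and Klri1 28, 15 and 14. All 3 genes were highest in thymus 1 and lowest in thymus 2. Per kilobase Klre1 was 0.634, 0.634 and 0.844 times the sum of both partners. Klre1 varied beyond counting noise (adjusted p = 0.00978, edgeR's Poisson goodness of fit), and the Klri genes did not.

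The Klrg genes were the lowest of the groups. Klrg1, a receptor for cadherins that marks mature effector cells, had 6, 10 and 11 reads. Klrg2 had 6, 6 and 5 reads, with more reads on the opposite strand than on its own. Their levels lay between 0.197 and 0.446 CPM in all libraries, and neither passed the filter on low counts.

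All 30 genes lay on chromosome 6 (GRCm38), 26 on the minus strand and 4 on the plus strand. Apart from Klrg1 and Klrg2, the other 28 began between the start of Klrb1a and Klra2 at chr6:128609227-131247362. The Klra genes other than Klra2 filled 556 kilobases of it, and Klra9, Klra13-ps, Klra7 and Klra3, which were among the 5 highest members per kilobase, all lay there. Klra9, at 11.2 CPM per kilobase, was next to Klra14-ps at 0.121 on one side and Klra7 at 4.28 on the other. Of 93 genes in this span that are not Klr genes, 15 (16.1%) were at 1 CPM or more in all thymi, among them the ligand genes Clec2d and Clec2i.

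**Figure D4:**
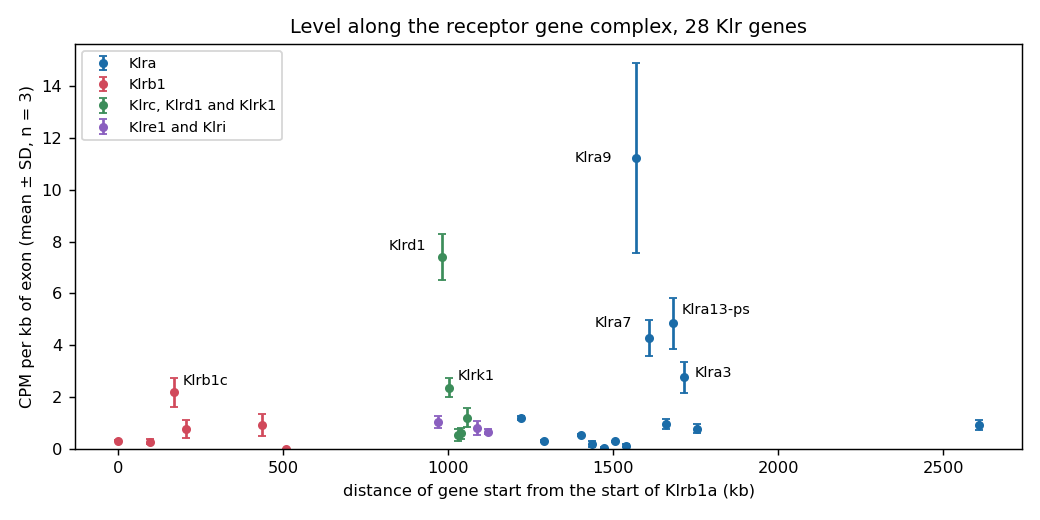
Level in CPM per kilobase (mean ± SD, n = 3 thymi) of the 28 Klr genes of the complex against the distance of the gene's start from that of Klrb1a in kilobases, coloured by subfamily. Klra9 and Klrd1 stand above their neighbours, and Klra2 lies alone at the right end.

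RefSeq promoters, from 250 bases before to 50 after each start, were found for 23 of the 30 genes, with 28 promoters in all. The Runt core TGTGGT, searched on both strands, was in 9 of 28 (32.1%), beside 16.8% of all 32851 promoters of that length. By gene these were 8 of 23, since 5 genes had more than 1 promoter, and the promoters of Klrc2 overlap by 260 bases. The share by gene over all promoters was not computed. Some matches were copies of each other: Klrc2 and Klrc3 held 2 sites each in nearly the same sequence. The sites of Klrb1a and Klrb1c also lay in similar sequence. Among Klra genes only Klra1 had a match. The T-box core AGGTGT was in 1 of 28 (3.57%), beside 13.7%. The 2 motifs can overlap by the letters TGT, and a match describes letters only.

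All 8 adaptor and phosphatase genes were above 1 CPM, led by Ptpn6 (SHP-1) at 228 ± 15.2 CPM, Zap70 at 148 ± 9.65, Ptpn11 (SHP-2) at 124 ± 4.66 and Inpp5d (SHIP1) at 113 ± 7.93 (SD, n = 3). These are also used by thymocytes. Among 18 ligand genes, 10 were at 1 CPM or more, with the MHC class I genes B2m at 1157 ± 55.3, H2-K1 at 767 ± 42.6 and H2-D1 at 608 ± 27.0 and the Qa-1 gene H2-T23 at 204 ± 9.49 CPM. Ulbp1, a ligand gene of Klrk1, was also among these 10, at 96.0 ± 14.8 CPM. The ligand genes outside the 10 were scarce, down to means of 0.0223 CPM for H60b and 0.0219 for H60c, also ligand genes of Klrk1. Of the 8 and of the 12 ligand genes tested, edgeR's quasi-likelihood test, its negative binomial goodness of fit and DESeq2's dispersion outliers called 0. Over all genes tested the shares called were 0.0604%, 0.737% and 0.489%. At an unadjusted p under 0.05 in the quasi-likelihood test there were 0 and 1, beside 4.42%. Variation beyond counting noise was called for 6 of the 8 and 9 of the 12 by edgeR's Poisson goodness of fit, beside 43.4%.

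The question that 3 control libraries can answer is how far each gene varied between thymi. A total of 21 of the 30 genes passed the filter on low counts, as did 31.4% of all genes, and the other 9 entered no test. None of the 21 was called more variable than genes of like abundance by edgeR's quasi-likelihood test, in which 0.0604% of genes were called. That test used 1 value of the prior degrees of freedom for all genes, and with edgeR's robust values per gene it called 0 genes in all. At an unadjusted p under 0.05 there were 3 (Klra9, Klrb1f and Klrb1b), beside 4.42% of genes. The negative binomial goodness of fit of edgeR and the dispersion outliers of DESeq2 also called 0, beside 0.737% and 0.489%.

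Variation beyond counting noise was called for 12 of the 21, beside 43.4% of all genes and 22.1% of genes within the same range of mean CPM. These were Klrk1, Klra9, Klrd1, Klrb1c, Klra7, Klra13-ps, Klrc2, Klra3, Klre1, Klrc1, Klrb1f and Klrb1b. Every tested member with more than 3 CPM on average was among them. Each fit without a library called fewer genes over the whole table as well: 39.7%, 26.2% and 22.3% without thymus 1, 2 and 3. Among the members, leaving out thymus 1 gave 7, namely Klra9, Klra13-ps, Klrb1b, Klrb1c, Klrb1f, Klrc2 and Klre1. Leaving out thymus 2 gave 5, namely Klra3, Klrb1c, Klrb1f, Klrc1 and Klrk1. Leaving out thymus 3 gave 8, namely Klra7, Klra9, Klra13-ps, Klrb1b, Klrc2, Klrd1, Klre1 and Klrk1. No gene was called in all 3 of these fits. The median coefficient of variation was 20.8% over the 21 genes, 9.06% over all genes tested and 13.9% over those of like abundance.

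The deviations had a direction in common. Of the 21 genes, 18 were highest in thymus 1, beside 24.1% of all genes tested and 28.7% of those of like abundance. The lowest library was thymus 2 for 14, beside 36% of all genes, and thymus 3 for 7, beside 39.7%. The order with thymus 1 highest and thymus 2 lowest was that of 13 genes, beside 10.3% of all genes, and that with thymus 3 lowest of 5, beside 13.8%. Measured from each gene's own mean, the median log2 deviation of the 21 genes came to 0.23, -0.18 and -0.03 in the 3 libraries. That of all genes tested came to 0.00, 0.00 and -0.01, and that of genes of like abundance to 0.005, 0.035 and -0.039. In thymus 3 the median of the 21 genes was thus close to that of genes of like abundance. Thymus 1 kept a median of 0.21 after the trend with GC content was removed, whereas thymus 2 moved to -0.04 and thymus 3 to -0.14, with 9 genes lowest in thymus 2.

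**Figure D5:**
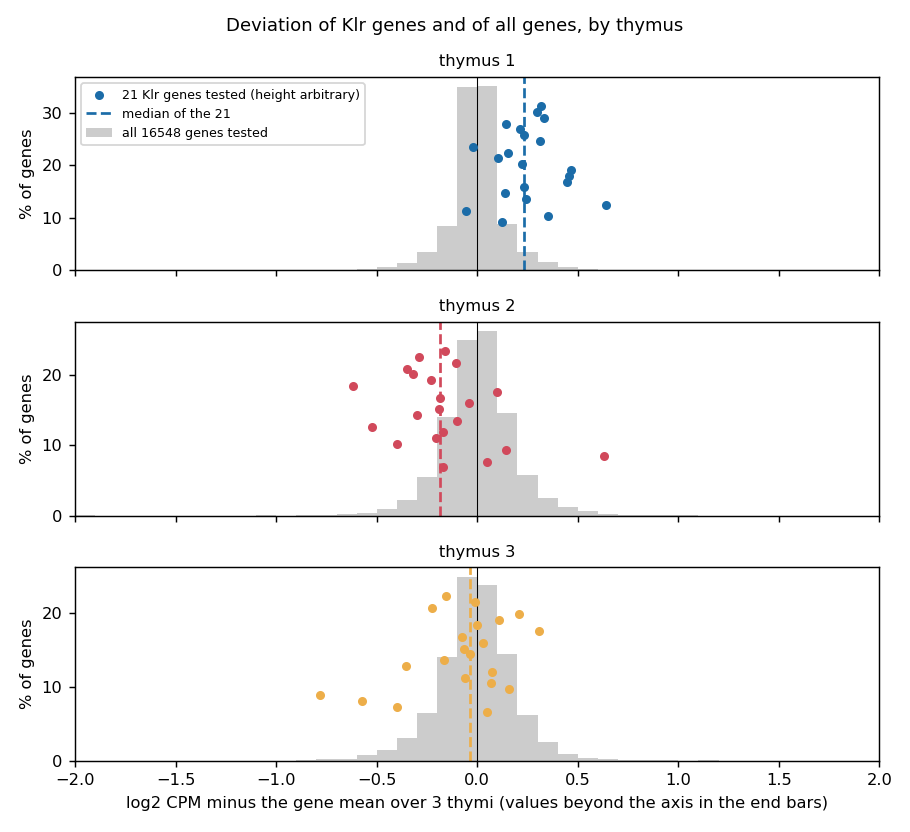
Log2 CPM minus the gene's mean over 3 thymi, in 1 panel per thymus, for the 21 tested Klr genes (points, height arbitrary; dashed line at their median) and for all 16548 genes (grey bars, percent of genes per bin). In thymus 1 most points lie to the right of 0, with a median of 0.23 and Klrb1b and Klra6 to the left, and in thymus 2 mostly to the left, with a median of -0.18.

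Other cell types also differed between the libraries. All 5 red cell genes were highest in thymus 1 and lowest in thymus 2, and all 5 were called by edgeR's quasi-likelihood variability test as set here, with 0 under its per-gene prior. Their summed level was 1024, 47.1 and 224 CPM. Of 8 myeloid genes 7 were highest in thymus 1 and all 8 were lowest in thymus 3. Their sums were 928, 740 and 667 CPM. The 4 B cell genes had their highest library in thymus 1 and their lowest in thymus 3, and summed to 1283, 1273 and 1241 CPM. The part of these cells in the Klr deviations was not tested.

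The 15 genes of the NK cell list summed to 215, 198 and 211 CPM in thymus 1, 2 and 3. Of the 13 tested, 7 were highest in thymus 1, beside 24.1% of all genes tested. The lowest library was thymus 3 for 8 of the 13, beside 39.7%, and thymus 2 for 4, beside 36%. Their median log2 deviations were 0.10, 0.03 and -0.07. Of these 13, edgeR's quasi-likelihood test called 0, beside 0.0604% of all genes, with 2 under an unadjusted p of 0.05, beside 4.42%. Its negative binomial goodness of fit called 2, beside 0.737%, and its Poisson goodness of fit 5, beside 43.4%. Gzma, a granzyme that makes up much of the sum, was lowest in thymus 2 at 72.5 CPM against 95.02 and 119. Ccl5 went the other way, with 38.3, 49.6 and 27.8 CPM, and Il2rb was lowest in thymus 3, with 37.1, 34.7 and 27.2. The defining NK receptor gene Ncr1 was near the limit, with 13, 14 and 6 reads, and Eomes, a factor of NK cells, had 50, 46 and 47. By CPM, Ncr1 was highest in thymus 2 and Eomes in thymus 3, and no gene of the list was at 0 throughout. The sums of the innate-like T list were 1243, 1204 and 1323 CPM, with 3 of 9 genes highest in each thymus. Those of the gamma-delta T list were 300, 281 and 315 CPM, with 1 of 8 highest in thymus 1, and those of the plasmacytoid dendritic list 2301, 2013 and 2392 CPM, with 3 of 7. Ccr9 and Ly6d, at 1543 and 450.2 CPM on average, made up most of the last sum, whereas the defining marker Siglech had 17.5, 14.7 and 11.2 CPM.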

How the data were processed

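RNA was isolated with the AllPrep DNA/RNA kit and libraries were made with a TruSeq Stranded mRNA kit, per the labels' protocols. The deposited files hold unnormalised counts of reads for each gene and strand. The submitters' processing notes name STAR 2.5.3a, DESeq2 and GRCm38. The annotation release is not given in the sources used here. Of the columns, the reverse-strand column was used, which holds a dUTP library's own-strand reads. The 4 summary lines were left out of library sizes. Of the gene identifiers 52489 matched GENCODE M21 and 147 did not.

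R 4.3.3 with edgeR 4.0.16 and DESeq2 1.42.0 were used. Genes with low counts were removed with edgeR's filter (minimum 10, total 15), which kept 16548, from which library sizes and TMM factors were taken. An intercept-only quasi-likelihood fit gave a one-sided F test of each gene's quasi-dispersion against the trended prior. A goodness of fit at dispersion 0 tested for spread beyond counting noise. Both were adjusted by Benjamini-Hochberg over all genes at 0.05. Log2 CPM had a prior count of 2. On counts simulated for 16548 genes, with 1 library changed 2-fold, the first test recovered 37 of 67 genes, and at 4-fold 66 of 67. It made 5 false calls among 174. The changed genes were drawn from all genes tested, and their level was only raised. A mean of at least 5 CPM was reached by 11358 genes, but by only 6 of the Klr genes. These recoveries therefore do not give the power of the test for the scarce Klr genes. A first version, with the robust prior degrees of freedom per gene, recovered 0 of the 200 changed genes and was replaced by 1 value for all genes after these results were seen. The limits of 3 counts cover counting error only.

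Coding identity came from global alignment in Biopython 1.88. The members and gene lists were chosen with earlier results of these data known. Genes were named if at 1 CPM or more in all thymi, if called by a test or if at 0 throughout. Up to 10 others with the most counts were named, and up to 4 of each companion list. Klrg2, Klra14-ps, Klra11-ps, Ncr1, Gm44511, Rag1 and Cd8a with the other list genes outside that rule, the within-library ratios, the range of like abundance, the sequences shown and the span of the complex were chosen after their values were seen. Proteins were not shown, as no protein table was used here.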

Additional observations from a re-analysis of the deposited data

Results flagged for a closer look

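Reads on the strand opposite to a Klr gene, in the column that enters no level or variability test above, exceeded the 3-count limit in all 3 libraries for 2 genes. Klrg2 had 35, 24 and 25 such reads in thymus 1, 2 and 3, against 6, 6 and 5 on its own strand. Its own-strand share was therefore 14.6%, 20% and 16.7%, with exact 95% binomial intervals that reach at most 29.2%, 38.6% and 34.7%. Klrk1 had 52, 24 and 37 opposite-strand reads, with the own-strand shares and intervals given above. No gene of GENCODE M21 overlaps either gene on the opposite strand.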

How the results depend on the processing

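No paired analysis was possible because there was 1 group of samples. The number of Klr genes called more variable than the trend was 0 under a prior that was not robust, prior degrees of freedom per gene (added after the data were seen), edgeR's negative binomial goodness of fit, DESeq2 dispersion outliers, library totals, a mean of at least 5 CPM and the unstranded column, and 1, Klra9, with no filter on low counts. With each library left out in turn it was 0 to 1. Without a filter 285 genes were called over the whole table. The number of genes varying beyond counting noise was 5 to 8 with a library left out and 10 to 12 under DESeq2 size factors, library totals, no filter and the unstranded column. At a mean of at least 5 CPM it was 6 of 6 tested. Leaving out a library leaves fewer samples, and the cause of the other changes was not tested. The number highest in thymus 1 was 17 to 19 of the genes tested under DESeq2 size factors, library totals, the unstranded column and removal of GC content or of GC content with length. It was 5 of 6 at a mean of at least 5 CPM, where fewer genes were tested. Those settings were added after the data were seen. The thymus 2 median deviation lay between -0.21 and -0.04 and that of thymus 1 between 0.21 and 0.24, whereas that of thymus 3 was -0.15 to 0.03 and changed sign at a mean of at least 5 CPM. The Klrg share was 1.23% in the unstranded column, which adds opposite-strand reads. Per kilobase of unique sequence the share of Klre1 and Klri was 4.38% and that of the Klrc genes, Klrd1 and Klrk1 22.95%. The number at 1 CPM or more, the summed level and the Klra and Klrb1 shares moved by less than the spread between thymi or by less than 1.5 times. Counting limits the scarce members, 14 of which had fewer than 1 CPM.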
